A study of Mus musculus with 23 samples.

Results

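The genes described here are the 9 that carry the urea cycle and its arginase step: *Cps1*, *Nags*, *Otc*, *Ass1*, *Asl*, *Arg1*, the carriers *Slc25a15* and *Slc25a13*, and *Arg2*, the second arginase. They were chosen by symbol, from knowledge of the pathway, among 48895 symbols in the deposited table. Earlier results of these data were known when the choice was made. All 9 passed the filter on low counts in each comparison. RNA-seq of poly(A) RNA covered 23 libraries of male BALB/c mice that were 4–6 weeks old when they entered the study. Control liver came from 5 sham-operated mice (C1, C4, C5, C6, and C7), whose cecum received medium without cells. Pre-metastatic liver and primary tumor came from the same 9 mice (M1, M2, M4, M5, M6, M7, M8, M10, and M12), killed 3 weeks after the wall of the cecum had been injected with CT26, a line derived from a mouse colon carcinoma. The labels name no transgene or drug, the tumors all derive from 1 cell line, and whole tissue was sequenced, so that a lower level in these libraries can mean fewer cells of a type or less RNA in each cell, which cannot be told apart.

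The urea cycle turns toxic ammonia into urea and runs in full only in hepatocytes, above all in those near the portal vein. Its first steps lie in the mitochondrion and its last in the cytosol, where arginase splits arginine into urea and ornithine. *Arg1* is also used outside the cycle: some macrophages and myeloid-derived suppressor cells express it and use up the arginine that T cells need.

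Levels are given as RPKM, the reads counted for a gene divided by the length of the gene and by the total counted in the library. Total counts were 44587556 to 79773163 per library. Fold changes and adjusted *p* values are from edgeR's quasi-likelihood test on the counts, two-sided, with TMM scaling and Benjamini-Hochberg adjustment over all genes tested, and a gene was called when the adjusted *p* was under 0.05. The livers were split into 2 sets by an index of their circadian clock genes, cut at 0.5. These were an early phase (4 control and 5 pre-metastatic livers) and a late phase (control C7 and M1, M2, M10, and M12). On the index C7, at 0.98, lay between the nearest early liver, M7 at -0.10, and the nearest late one, M12 at 2.05. The tumors of M10 and M12 held more hepatocyte RNA than the other 7: *Alb*, the albumin gene and the most abundant hepatocyte marker in the livers, was at 86.4 and 173 RPKM there and at 2.97 to 15.0 RPKM in the rest. Some results that rest on these tumors, such as the falls of *Cps1*, *Otc*, and *Nags* from pre-metastatic liver, are given without them as well. Other tumor results include them.

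In control liver the 9 genes spanned more than 3 orders of magnitude on the RPKM scale, which is per length and can be compared between genes. *Ass1*, which joins citrulline to aspartate, came first at 2015 ± 866 RPKM (SD, n = 5), followed by *Arg1* at 1504 ± 343 and *Cps1*, the entry enzyme that makes carbamoyl phosphate, at 1415 ± 333. Their ranges overlapped, so the order of these leading 3 is not fixed. *Asl*, which cleaves argininosuccinate to arginine, was at 459 ± 197 RPKM, *Slc25a15*, which exchanges ornithine and citrulline across the inner mitochondrial membrane, at 143 ± 23.2, and *Slc25a13*, which supplies aspartate to the cytosol, at 76.5 ± 10.3. *Nags*, which makes the activator that Cps1 protein needs, was at 70.3 ± 6.88 and *Otc*, which forms citrulline, at 63.2 ± 5.03. *Slc25a13* overlapped with *Nags*, and *Nags* with *Otc*. *Arg2*, the mitochondrial arginase, stood last at 0.424 ± 0.180 RPKM, on 13 to 55 counts per library.

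Pre-metastatic liver kept the broad order but drew its members together. *Arg1* came first at 602 ± 256 RPKM (SD, n = 9), then *Ass1* at 558 ± 228 and *Cps1* at 438 ± 154, all overlapping. *Asl*, *Otc*, *Slc25a15*, *Slc25a13*, and *Nags* then followed within 78.5 and 37.6 RPKM, each overlapping with its neighbor, and *Arg2* was last at 0.732 ± 0.280. *Otc* moved up in this order, past *Slc25a15*, *Slc25a13*, and *Nags*, at a level of 67.9 ± 16.0 RPKM, close to that of control liver.

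In the primary tumor *Arg1* stood apart from the rest. It was at 138 ± 69.9 RPKM (SD, n = 9), and every tumor had more *Arg1* than any tumor had of the gene ranked second, *Slc25a13* at 10.9 ± 1.24 RPKM. *Ass1* and *Asl* followed at 7.23 ± 3.58 and 7.15 ± 0.673, *Arg2* at 4.62 ± 1.64, and *Slc25a15* at 2.36 ± 0.414. *Cps1*, *Otc*, and *Nags*, whose products are mitochondrial enzymes, were near the bottom of the scale at 0.599 ± 1.03, 0.0613 ± 0.0978, and 0.0558 ± 0.0561 RPKM.

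**Figure D1:**
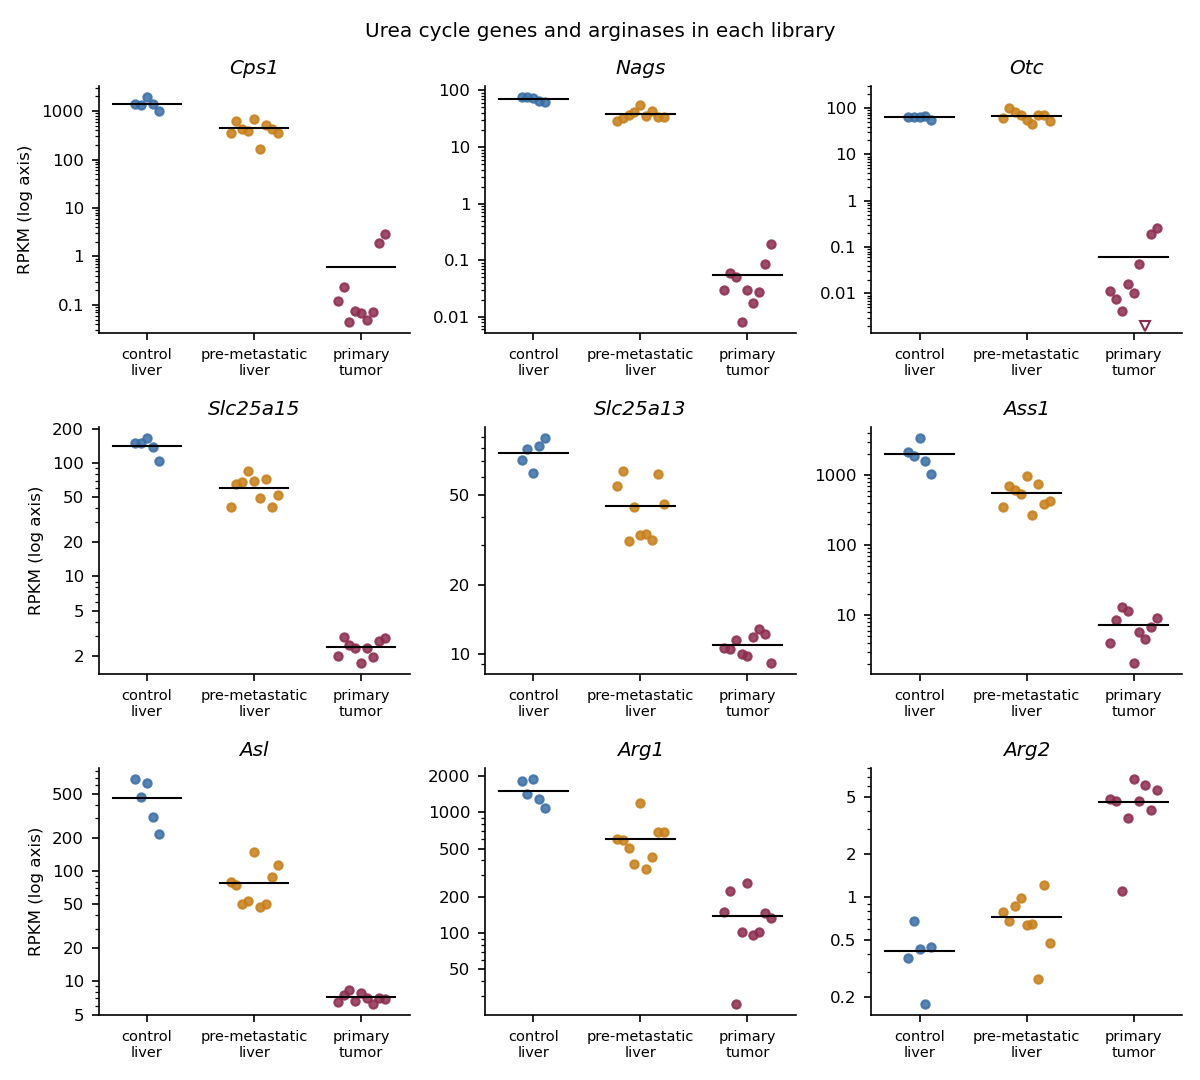
RPKM (log axis) of the 9 genes in each library, with 1 point per library, a line at the group mean, and an open triangle for the 1 tumor with no *Otc* count. *Otc* is level between the livers (63.2 and 67.9 RPKM on average), 7 genes are lower in pre-metastatic than in control liver, and *Arg1* alone stays above 25 RPKM in every tumor.

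Because *Ass1* fell in the pre-metastatic liver, *Nags* fell less, and *Otc* did not fall, the bases before the start of these 3 genes are shown first. Promoter entries were found for 5 of the 9 genes (*Ass1*, *Otc*, *Nags*, *Slc25a15*, and *Slc25a13*). The sequences are from RefSeq, build GRCm38.p6, which shares its coordinates with the mm10 build of the table, and run 5′ to 3′ along the gene's strand, in each case the plus strand. Bases that the table or RefSeq places inside the gene were left off.
*Ass1*, chr2:31470020-31470269: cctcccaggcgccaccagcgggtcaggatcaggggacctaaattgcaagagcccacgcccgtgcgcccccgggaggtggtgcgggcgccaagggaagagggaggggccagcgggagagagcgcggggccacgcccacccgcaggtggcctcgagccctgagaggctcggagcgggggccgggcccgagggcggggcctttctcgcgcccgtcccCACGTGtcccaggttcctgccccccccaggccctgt
*Nags*, chr11:102145263-102145512: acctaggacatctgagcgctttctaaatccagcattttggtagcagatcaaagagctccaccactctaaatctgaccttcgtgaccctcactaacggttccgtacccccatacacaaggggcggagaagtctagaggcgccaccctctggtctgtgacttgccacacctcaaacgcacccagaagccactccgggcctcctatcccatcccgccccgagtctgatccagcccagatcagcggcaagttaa
*Otc*, chrX:10252055-10252229: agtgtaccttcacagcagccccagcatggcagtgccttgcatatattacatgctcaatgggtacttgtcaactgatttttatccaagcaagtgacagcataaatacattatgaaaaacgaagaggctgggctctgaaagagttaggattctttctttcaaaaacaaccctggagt
Capitals mark the E box, CACGTG, a motif bound by clock and MYC family factors. Over the 250 bases before the start, *Ass1* had 75.6% G and C and 23 CG pairs, *Nags* 55.6% and 11, and *Otc* 43.6% and 1, where the median of 32851 promoters was 52.4% and 6. For *Otc*, some of these bases lie inside the gene as RefSeq draws it. The E box lay 36 bases before the start of *Ass1*, and 6.02% of all promoters hold one. It was the only match outside the genes for the 5 entries with bases there. TGACG, the core of the cAMP response element (17.8% of all promoters), TTGCNNAA, bound by C/EBP factors (9.56%), TATAAA (12.4%), and CAAAGTCCA, an HNF4 site (0.384%), had no match in those bases. The shares of all promoters are over the full 250 bases. Over that length an E box also lay 125 bases before the start of *Slc25a13* and 77 before that of another entry of *Slc25a15*. *Slc25a13* held TGACG as well, 13 bases before the start. These matches lie inside the gene as the table or RefSeq draws it. Both strands were searched, the motifs were chosen after the levels had been seen (and the E box after the sequences), and a match describes letters only.

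Compared with control liver, 7 of the 9 genes were lower in pre-metastatic liver and none was higher, while 13.3% of 16987 genes tested were lower and 17.7% higher. The 7 were *Cps1*, *Nags*, *Ass1*, *Asl*, *Arg1*, *Slc25a15*, and *Slc25a13*, and *Otc* and *Arg2* were not called. The median log2 fold change of the 9 was -1.17, beside 0.01 over all genes tested. For 5 of them (*Cps1*, *Nags*, *Ass1*, *Asl*, and *Slc25a15*) every pre-metastatic liver lay below every control liver, as was so for 6.09% of all genes tested. The call of each of the 7 was kept in the early-phase livers alone and with the clock phase as a term.

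*Cps1* (chr1:67122426-67231267, plus strand), which commits ammonia to the cycle, was at 1406, 1337, 1928, 1406, and 998 RPKM in control livers C1, C4, C5, C6, and C7. In pre-metastatic liver it ran from 169 RPKM in M7 through a median of 419 to 683 in M6. The groups did not overlap. *Cps1* fell by 1.61 on the log2 scale (SE 0.25, adjusted *p* = 0.000348), a 3.05-fold difference.

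*Nags* (chr11:102145513-102149528, plus strand) was at 75.3, 75.8, 74.8, 63.8, and 61.9 RPKM in the same control livers and at 28.8 to 55.9 RPKM in pre-metastatic liver, with a median of 35.0 and the highest value in M6. It fell by 0.81 (SE 0.16, adjusted *p* = 0.00129). *Gm11586*, a noncoding RNA on the other strand whose exons overlap those of *Nags* and which is named here for that reason, was at 6.68 to 20.3 RPKM in the livers and fell by 0.93. Whether counting used the strand is not given in the sources used here, so reads of these genes may not be fully separated.

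*Otc* (chrX:10252296-10321024, plus strand), the step that follows *Cps1* in the mitochondrion, was not among the genes that fell. It was at 65.2, 65.7, 64.8, 66.3, and 54.3 RPKM in control livers and at 46.2 (M7), a median of 69.7, and 98.5 (M2) in pre-metastatic livers. The groups overlapped, and the log2 difference was 0.17 (SE 0.13, adjusted *p* = 0.353). Among the early-phase livers it was 0.04 (adjusted *p* = 0.873). The spread of *Otc* was wider in pre-metastatic liver, with an SD of 16.0 RPKM against 5.03.

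The separation of *Otc* from its neighbors can be read inside each library, where scaling has no part. The *Cps1* to *Otc* ratio was 18.4 to 29.8 in control liver and 3.65 to 12.6 in pre-metastatic liver, a log2 difference of -1.82 (exact permutation *p* = 0.0005, adjusted *p* = 0.000749 over 3 ratios chosen after the levels had been seen). The *Ass1* to *Otc* ratio differed by -1.93 (the same exact *p* and adjusted *p*), also without overlap. The *Arg1* to *Otc* ratio differed by -1.46 (exact *p* = 0.0025, adjusted *p* = 0.0025), and there M6, at 22.0, lay within the control range of 19.3 to 29.1.

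*Ass1* (chr2:31470270-31520670, plus strand) was at 2163, 1897, 3373, 1601, and 1043 RPKM in control livers C1, C4, C5, C6, and C7 and at 266 (M7), a median of 542, and 985 (M6) in pre-metastatic livers. The lowest control, the late-phase liver C7, lay close to the highest pre-metastatic liver, but the groups did not overlap. *Ass1* fell by 1.77 (SE 0.30, adjusted *p* = 0.000636), a 3.41-fold difference.

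*Asl* (chr5:130011498-130024331, minus strand) showed the deepest fall of the 9. It was at 679, 468, 621, 311, and 216 RPKM in control livers and at 47.5 (M7), a median of 74.3, and 150 (M6) in pre-metastatic livers. All 9 pre-metastatic livers were below all 5 controls. The fall was 2.45 on the log2 scale (SE 0.34, adjusted *p* = 0.000147), or 5.46-fold, and only 57 of 16987 genes had a lower log2 fold change.

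*Slc25a15* (chr8:22375550-22398621, minus strand), through which ornithine enters the mitochondrion, was at 151, 151, 166, 140, and 105 RPKM in control livers and at 41.0 (M1), a median of 65.0, and 84.6 (M5) in pre-metastatic livers. It fell by 1.17 (SE 0.16, adjusted *p* = 0.000152) without overlap. *Slc25a13* (chr6:6041218-6217234, minus strand) was at 70.8, 79.2, 61.9, 81.9, and 88.5 RPKM in control livers and at 31.3 (M4), a median of 44.0, and 63.8 (M2) in pre-metastatic livers. It fell by 0.71 (SE 0.17, adjusted *p* = 0.00638), and M2 overlapped with the lowest control. Within the early phase its groups were apart (31.3 to 44.0 against 61.9 to 81.9 RPKM) and the fall was 1.02 (adjusted *p* = 0.000548).

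*Arg1* (chr10:24915207-24927470, minus strand) was at 1828, 1432, 1884, 1282, and 1095 RPKM in control livers C1, C4, C5, C6, and C7. In pre-metastatic livers it was at 604 (M1), 595 (M2), 505 (M4), 374 (M5), 1189 (M6), 340 (M7), 425 (M8), 694 (M10), and 694 (M12). All but M6 lay below every control liver, and M6 lay above C7. *Arg1* fell by 1.22 on the log2 scale (SE 0.28, adjusted *p* = 0.00464). Without M6 the fall was 1.44 (adjusted *p* = 0.000293), and in the early-phase livers, M6 included, it was 1.40 (adjusted *p* = 0.0267).

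*Arg2* (chr12:79130788-79156301, plus strand) moved the other way without a call. It was at 0.374, 0.681, 0.435, 0.180, and 0.450 RPKM in control livers and at 0.267 (M8), a median of 0.681, and 1.22 (M10) in pre-metastatic livers, on 17 to 101 counts. The log2 difference was 0.86 (SE 0.33, adjusted *p* = 0.0628), and it was called when C4 or M8 was left out or when DESeq2 was used. Exons of *Arg2* overlap on the other strand with those of *Vti1b*, a gene of vesicle fusion named here for that overlap, which was at 29.0 to 42.5 RPKM in the livers, so low counts of *Arg2* are uncertain.

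Liver M6 was the highest of the 9 pre-metastatic livers for *Arg1*, *Ass1*, *Asl*, *Cps1*, and *Nags*, and M7 the lowest for *Arg1*, *Ass1*, *Asl*, *Cps1*, and *Otc*. Across the 9 pre-metastatic livers, *Arg1* rose with *Asl* on the scale of log2(RPKM + 1). Pearson's r was 0.94 (*p* = 0.000146 by exact permutation, 0.00351 after adjustment over 24 relations) and Spearman's rho 0.95 (*p* = 0.000353 by exact permutation, 0.00847 after adjustment). Without M6 and M7, the livers farthest from the median of *Asl*, r was 0.88 (exact *p* = 0.0121), and centered within clock phase it was 0.94 (exact *p* = 0.0184). None of the other 11 relations in the livers passed the adjustment. *Arg1* and *Cps1* had an r of 0.62 (exact *p* = 0.0791), which became -0.13 without M6 and M7 and so rests on those livers. *Arg1* and *Otc* had an r of -0.06 (exact *p* = 0.874).

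As a description over the 14 livers, and so in part over the difference between the groups, the genes whose log2(CPM + 1) was most like that of *Arg1* among 16986 tested were *Fbxo31*, a ubiquitin ligase adaptor (r = 0.97), *Asl* (r = 0.97), the predicted gene *Gm36172* (r = 0.96), *Cdip1* (r = 0.96), and *Mat1a*, the liver's methionine adenosyltransferase (r = 0.95). Among the members *Cps1* ranked 31st (r = 0.90), *Ass1* 71st (r = 0.86), *Nags* 138th (r = 0.83), *Slc25a15* 441st (r = 0.74), and *Slc25a13* 1025th (r = 0.65). *Otc* and *Arg2* had an r of -0.10 and -0.42.

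The genes that feed nitrogen into the cycle changed in both directions. Of the 12 genes for glutamine, glutamate, aspartate, and alanine, 5 were lower, 3 were higher, and 4 were not called, with a median log2 fold change of 0.02. *Got1*, the cytosolic transaminase that makes aspartate, was at 450, 461, 515, 303, and 149 RPKM in control livers and at 15.1 to 33.2 RPKM in 8 pre-metastatic livers, while M6, at 176, overlapped with control C7. It fell by 3.01 (SE 0.55, adjusted *p* = 0.00102), further than any member. *Slc25a22*, a mitochondrial glutamate carrier, fell by 1.59 (SE 0.23, adjusted *p* = 0.000202), and *Gls2*, which releases ammonia from glutamine in the liver, fell by 1.44 (SE 0.26, adjusted *p* = 0.00089), both without overlap. *Asns*, which makes asparagine from aspartate, rose by 2.45 (SE 0.57, adjusted *p* = 0.0049), from 0.319 ± 0.282 to 1.57 ± 1.02 RPKM, and the glutamine transporters *Slc38a2* and *Slc38a3* rose by 1.22 and 0.64 (adjusted *p* = 0.000688 and 0.0119).

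Of 16 tested genes that use arginine or ornithine outside the cycle (18 on the list), 5 were lower and 5 higher, with a median of -0.04. *Oat*, which turns ornithine toward glutamate and is a gene of hepatocytes near the central vein, was at 712 ± 80.0 RPKM in control and 156 ± 48.5 RPKM in pre-metastatic liver and fell by 2.13 on the log2 scale (SE 0.14, adjusted *p* = 1.31e-06). *Odc1*, the first enzyme of polyamine synthesis, fell by 1.28 (adjusted *p* = 8.71e-05) and *Prodh*, proline dehydrogenase, fell by 0.72 (adjusted *p* = 0.0378). The creatine gene *Gatm* rose by 1.57 (adjusted *p* = 0.000867), and the proline genes *Aldh18a1* and *Pycr1* rose by 1.92 and 1.75 (adjusted *p* = 7.77e-05 and 0.0193), both from levels under 0.2 RPKM. *Nos2*, the inducible nitric oxide synthase that competes for arginine, was too low to be tested in the livers (0.00962 ± 0.0153 and 0.0435 ± 0.0425 RPKM).

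Of 8 tested transporters of arginine, ornithine, and urea (9 on the list), 3 were higher and 2 lower, with a median of 0.68. *Slc7a2*, the arginine transporter of hepatocytes, fell from 49.3 ± 13.5 to 22.9 ± 12.8 RPKM (log2 fold change -1.04, adjusted *p* = 0.0278), and the mitochondrial carrier *Slc25a29* fell by 0.96 (adjusted *p* = 0.0077). *Slc7a7*, which exports arginine, rose by 1.65 (adjusted *p* = 3.26e-05), the urea channel *Slc14a1* by 3.10 from 0.0264 RPKM (adjusted *p* = 0.00332), and *Aqp9*, through which urea leaves hepatocytes, by 0.53 (adjusted *p* = 0.00259). Of 7 regulators, *Hnf4a*, a hepatocyte transcription factor, fell by 0.70 (adjusted *p* = 0.0153), *Nr3c1*, the glucocorticoid receptor, rose by 0.56 (adjusted *p* = 0.00883), and 5 were not called.

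**Figure D2:**
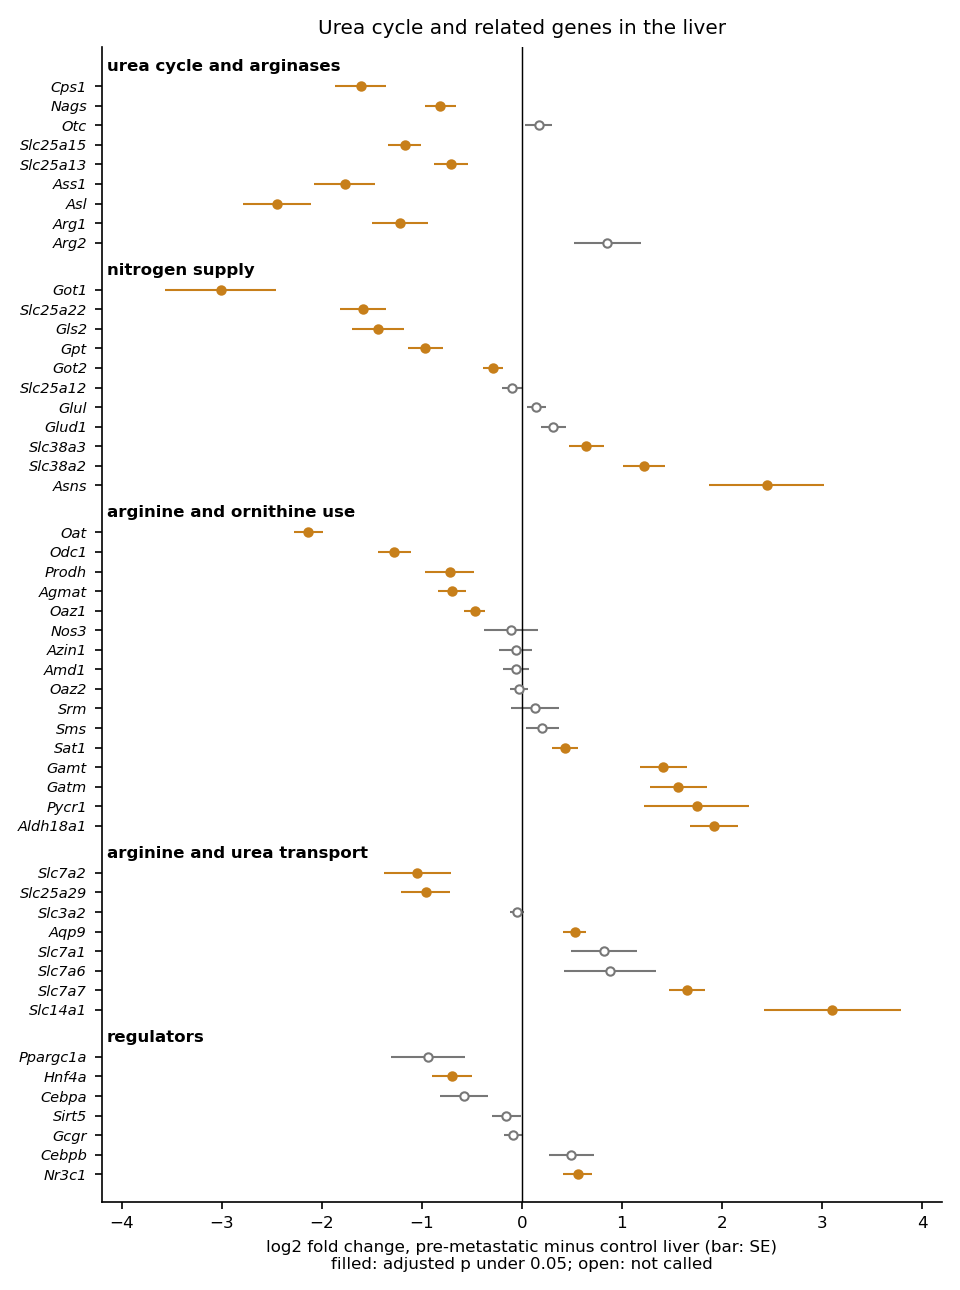
Log2 fold change of pre-metastatic over control liver for the 9 genes and for tested genes of 4 related lists (1 gene is not shown), 1 row a gene, with the SE as a bar and filled points for adjusted *p* under 0.05. In the top block 7 of 9 genes are filled and left of 0, from -0.71 (*Slc25a13*) to -2.45 (*Asl*), and the other blocks hold filled points on both sides.

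The hepatocyte markers chosen here did not fall as a set beside *Arg1*. Other genes of hepatocytes named above fell (*Oat*, *Slc7a2*, and *Hnf4a*) or rose (*Aqp9*). Of 10 hepatocyte markers, 3 were higher and none lower in pre-metastatic liver, 7 were not called, and their summed level was 55014 to 66668 RPKM in control and 46630 to 95508 RPKM in pre-metastatic liver. With library totals in place of TMM, 3 were higher and 2 lower. *Alb* was at 24880 ± 3261 and 28366 ± 10645 RPKM (log2 difference 0.31, adjusted *p* = 0.445), and *Trf*, the transferrin gene, at 5055 ± 206 and 11031 ± 2146 RPKM. *Apoa1*, second in level in control liver, went the other way without a call, from 14558 ± 2139 to 10221 ± 2132 RPKM. The log2 fold changes of the 10 ran from -0.41 to 1.28, with a median of 0.15. The *Arg1* to *Alb* ratio was 0.0362 to 0.0840 in control liver and 0.0168 to 0.0288 in pre-metastatic liver, a log2 difference of -1.50 without overlap (exact permutation *p* = 0.0005, adjusted *p* = 0.000562 over 9 ratio comparisons), where 0.0005 is the smallest *p* that 9 against 5 libraries allow. The *Arg1* to *Cps1* ratio was 0.912 to 1.30 and 0.825 to 2.02 (log2 difference 0.36, exact *p* = 0.140, adjusted *p* = 0.140), so that a change between *Arg1* and *Cps1* was not detected with 9 and 5 livers. Of 6 markers of hepatocytes near the portal vein 3 were lower and none higher, and of 6 markers near the central vein 2 were higher and 1 lower (1 and 2 with library totals).

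Myeloid genes rose in the same livers in which *Arg1* fell. All 8 monocyte and macrophage markers were higher in pre-metastatic liver, led in level by *Lyz2*, the lysozyme of myeloid cells (30.3 ± 7.55 to 107 ± 43.9 RPKM), and *Csf1r*, the macrophage growth factor receptor (9.76 ± 2.72 to 19.98 ± 7.48 RPKM). Their sum was 32.1 to 66.6 RPKM in control liver and 83.6 to 237 RPKM in pre-metastatic liver. Of 6 tested granulocyte markers 5 were higher, with *S100a9* at 5.97 ± 2.76 and 23.7 ± 17.3 RPKM and *S100a8* at 4.03 ± 2.53 and 18.3 ± 14.6 RPKM, and of 5 Kupffer cell markers 4 were higher, *Cd5l* and *Clec4f* leading. Of 5 tested markers of alternatively activated macrophages, a state in which mouse macrophages express *Arg1*, 1 was higher and 4 were not called. *Mrc1* and *Cd163* were among those 4. The log2 fold changes of the 5 ran from 0.48 to 1.48, with a median of 1.10. Across the 9 pre-metastatic livers *Arg1* had an r of 0.01 with the monocyte and macrophage score, the mean log2(RPKM + 1) of the markers (exact *p* = 0.973), 0.51 with the granulocyte score (exact *p* = 0.159), 0.09 with the score of alternatively activated macrophages (exact *p* = 0.804), and 0.74 with the hepatocyte score (exact *p* = 0.0213, adjusted *p* = 0.128). Without M5 and M6 the r with the hepatocyte score was 0.35 (exact *p* = 0.444), and centered within clock phase it was 0.75 (exact *p* = 0.0406). Its rho was 0.83 over all 9 livers (exact *p* = 0.00827, adjusted *p* = 0.0992) and 0.71 without M5 and M6. Without M1 and M2 the relation to the granulocyte score was 0.89 (exact *p* = 0.00833), and centered within clock phase it was 0.53 (exact *p* = 0.0368). The rho with the granulocyte score was 0.60 over all 9 livers (exact *p* = 0.0968) and 0.86 without M1 and M2.

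The myeloid part of liver *Arg1* was set against the same mouse's tumor. If the monocytes and macrophages of a liver carried as much *Arg1* per unit of marker RNA as the whole tumor of that mouse, they would account for 0.496% to 5.74% of its *Arg1* (median 1.85%). This share rests largely on 1 marker. On average *Lyz2* held 1400 of the 1710 RPKM of marker RNA in the tumors and 107 of 154 RPKM in the pre-metastatic livers. With the granulocyte markers as the yardstick the figure is 2.55% to 54.7% (median 11.8%), and it is highest in M10, whose tumor had the second lowest granulocyte sum of the 9. Cells of the liver may carry more *Arg1* than those of the tumor, which was not tested.

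Compared with pre-metastatic liver, the primary tumor had less of 8 of the 9 genes and more *Arg2*, where 39.5% of 19749 genes were lower and 43.8% higher. Compared with control liver the split was again 8 lower and 1 higher, where 38.1% of 19320 genes were lower and 44.2% higher. Both comparisons share the tumors. The median log2 fold change of the 9 was -5.85 against pre-metastatic liver and -7.10 against control liver, beside 0.13 and 0.18 over all genes tested. The few most abundant liver genes take up much of a liver library, and with library totals in place of TMM, the scaling that RPKM has, the median of all genes moved to 1.30 and 1.26. The directions and calls of the 9 genes were the same under that scaling, but against pre-metastatic liver 13352 genes were then higher and 4206 lower, instead of 8648 and 7809 with TMM, and against control liver 12859 and 4130 instead of 8541 and 7355.

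*Arg1* in the tumors was at 150 (M1), 224 (M2), 25.9 (M4), 102 (M5), 258 (M6), 96.1 (M7), 102 (M8), 146 (M10), and 133 RPKM (M12), on 2140 to 20660 counts. Every tumor was below every liver, and M4 was the lowest, several times below the next. The log2 fold change was -3.35 against pre-metastatic liver (SE 0.36, adjusted *p* = 4.14e-08) and -4.55 against control liver (SE 0.38, adjusted *p* = 1.21e-08). With library totals these were -2.13 and -3.45.

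*Cps1*, *Otc*, and *Nags* were the lowest of the 9. *Cps1* was at 0.0449 to 0.230 RPKM in 7 tumors and at 1.87 and 2.86 RPKM in M10 and M12, *Otc* had 0 to 10 counts in those 7 tumors and 59 and 61 in M10 and M12, and *Nags* had 1 to 22 counts in all 9. The log2 fold changes against pre-metastatic liver were -10.66 (SE 1.12) for *Cps1*, -11.21 (SE 0.75) for *Otc*, and -10.53 (SE 0.37) for *Nags* (adjusted *p* = 2.85e-08, 2.66e-11, and 1.59e-15). Without the tumors of M10 and M12 those of *Cps1*, *Otc*, and *Nags* went to -13.35, -13.43, and -11.32.

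The cytosolic enzymes and the carriers fell less far. *Ass1* was at 2.09 (M6), a median of 6.72, and 12.9 RPKM (M4), *Asl* at 6.26 to 8.41 RPKM with the smallest relative spread of the 9 (a coefficient of variation of 9.40%), *Slc25a15* at 1.73 to 2.89, and *Slc25a13* at 9.11 to 12.9. Their log2 fold changes against pre-metastatic liver were -7.46 (SE 0.41), -4.67 (SE 0.25), -5.85 (SE 0.17), and -3.20 (SE 0.15), with adjusted *p* values of 1.07e-12, 1.04e-12, 1.74e-16, and 1.60e-13. The ranges of tumor and liver did not overlap for any of them, and 67.1% of all genes tested had no overlap with pre-metastatic liver and 73.5% none with control liver, 14.2% and 17.1% with the tumors lower.

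*Arg2* was the only member that was higher in the tumor. It was at 1.11 RPKM in M4 and at 3.59 to 6.71 RPKM in the other 8 tumors, on 88 to 456 counts, and M4 alone overlapped with the livers, whose highest value was 1.22. The log2 fold change was 1.48 against pre-metastatic liver (SE 0.28, adjusted *p* = 7.12e-05) and 2.36 against control liver (SE 0.38, adjusted *p* = 3.00e-05). With library totals these were 2.65 and 3.44. *Vti1b*, which overlaps its exons, was at 54.4 to 65.7 RPKM in the tumors, above every liver, and its direction depends on the scaling, with a log2 fold change against pre-metastatic liver of -0.38 with TMM and 0.80 with library totals. The *Arg1* to *Arg2* ratio fell from 2072 to 6759 in control liver and 374 to 1832 in pre-metastatic liver to 16.6 to 47.5 in the tumor (log2 difference from pre-metastatic liver -4.87, exact permutation *p* = 4.11e-05, adjusted *p* = 0.000123). That test regrouped libraries without the pairing by mouse.

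*Arg1* in the tumor was far above its liver proportion to hepatocyte genes. The *Arg1* to *Cps1* ratio was 472 to 3285 in 7 tumors and 77.6 and 46.5 in M10 and M12, against at most 2.02 in any liver. Over all 9 tumors the log2 difference from pre-metastatic liver was 8.83 and from control liver 9.20 (exact permutation *p* = 4.11e-05 and 0.0005, the smallest that regrouping the libraries allows, adjusted *p* = 0.000123 and 0.000562). The *Arg1* to *Alb* ratio was 8.16 to 66.6 in 7 tumors, 1.69 and 0.771 in M10 and M12, and at most 0.0840 in the livers. Over all 9 tumors the log2 differences were 9.14 and 7.64, with the same *p* values. *Cps1* and *Alb* were far lower in tumor than in liver, which by itself raises such ratios. These *p* values are therefore not particular to *Arg1*, and the liver parts calculated below for *Asl* and *Slc25a13* were small as well. The regrouping left aside that tumor and pre-metastatic liver came from the same 9 mice. With the pairing kept, by sign flips over 9 mice, no *p* could be below 0.00391.

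The liver part of each tumor's level was calculated from *Alb*, taking the tumor's *Alb* times the ratio of each gene to *Alb* in the liver of the same mouse. That all *Alb* of a tumor is liver RNA is assumed here and was not tested. For *Arg1* the calculated part came to 0.0535 to 2.91 RPKM, or 0.0387% to 2.18% of what the tumor had (median 0.106%). For *Cps1* it came to 52.5% to 199% (median 83.6%), and for *Otc* to 16.9% to 949% in the 8 tumors with a count (median 99.3%), 5 of which had only 1 to 4 counts. For *Nags* it came to 9.36% to 145% (median 31.8%), on 1 to 22 counts. The cytosolic enzymes *Ass1* and *Asl* had medians of 2.96% and 0.230%, and the carriers *Slc25a15* and *Slc25a13* of 0.664% and 0.0976%. In 9 of 9 tumors for *Cps1*, 6 of 8 for *Otc*, and 3 of 9 for *Nags* the calculated part was over 50% of the level, and in none for *Arg1*, *Arg2*, *Asl*, *Ass1*, and the carriers. Hepatocyte markers in the tumors were led by *Trf* and *Alb*, none of the 10 was at the floor of 3 counts in every tumor, and their sum was 23.5 to 113 RPKM in 7 tumors and 230 and 421 RPKM in M10 and M12. This sum did not follow *Alb* in each tumor: M6 had 101 RPKM at an *Alb* of 3.87 RPKM. *Trf* alone was at 15.8 to 104 RPKM in the tumors.

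**Figure D3:**
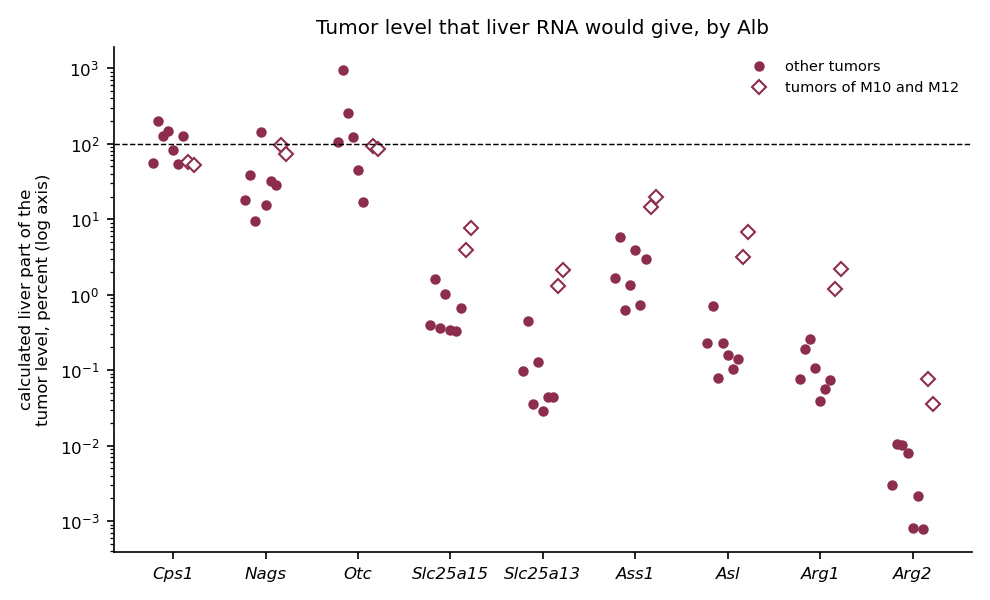
Share of each gene's tumor level, in percent on a log axis, that liver RNA would give at the tumor's *Alb* and the gene's ratio to *Alb* in the same mouse's liver, 1 point per tumor, with M10 and M12 as open diamonds and a dashed line at 100%. *Cps1* and *Otc* scatter about the line (medians 83.6% and 99.3%), while *Arg1* stays at or below 2.18%.

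Macrophage genes were abundant in the tumors. Of 8 monocyte and macrophage markers 7 were higher against pre-metastatic liver (8 with library totals) and all 8 against control liver, their sum was 1027 to 2976 RPKM, and *Lyz2* was at 1400 ± 521 RPKM and *Cd68* at 73.0 ± 15.8 RPKM. Kupffer cell markers were lower, 5 of 5 against either liver (4 of 5 against control liver with library totals or without M10 and M12). Granulocyte markers were called higher for 2 of 6 against pre-metastatic liver (3 with library totals). Of 6 markers of alternatively activated macrophages 2 were higher than in pre-metastatic liver and 1 lower (4 and 1 with library totals). *Mrc1* rose by 1.32 (SE 0.31, adjusted *p* = 0.000648) to 50.5 ± 22.2 RPKM, and *Cd163* was the one that fell. Of 8 intestinal epithelium markers, 3 were higher (*Krt20*, *Cdx2*, and *Cdh17*) and 4 lower (*Epcam*, *Lgals4*, *Vil1*, and *Car1*), with a median log2 fold change of -1.76. With library totals 3 were higher and 1 lower, with a median of -0.53. Without the tumors of M10 and M12, 2 of 7 tested were higher and 3 lower. *Krt20* was at 65.4 RPKM in the tumors on average, and each of the other 7 was at 2.34 RPKM or less. *Arg1* of the tumor cells themselves was not measured apart.

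**Figure D4:**
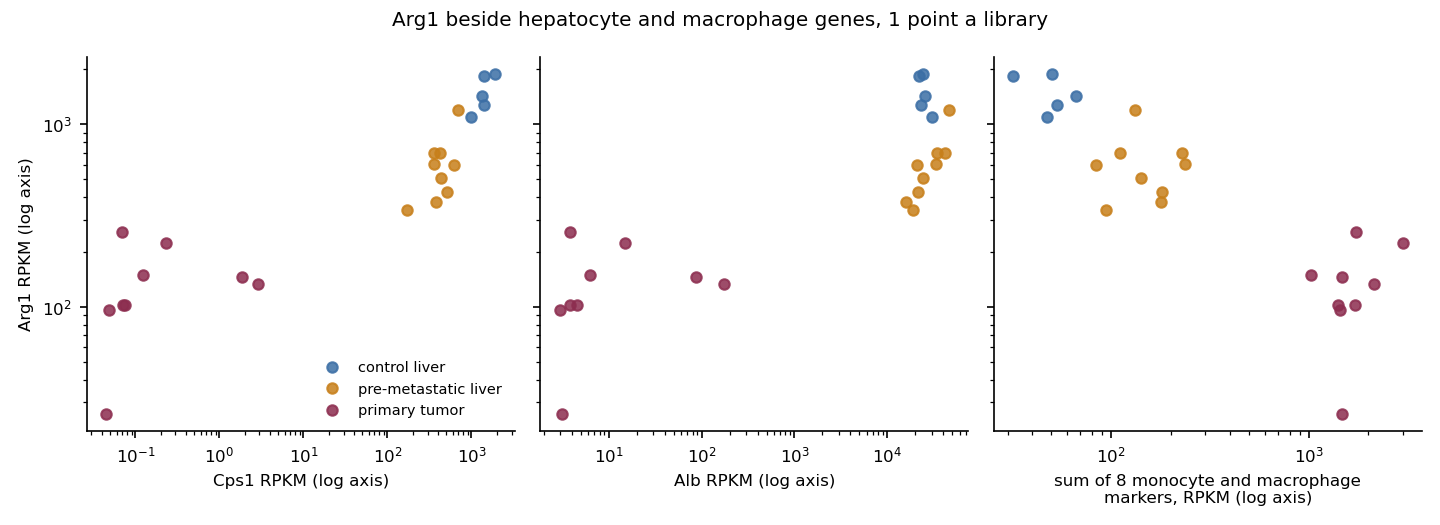
*Arg1* RPKM of each of the 23 libraries against *Cps1*, *Alb*, and the sum of 8 monocyte and macrophage markers, all on log axes. The livers lie at high *Cps1* and *Alb* and low macrophage sums, and the 9 tumors lie at *Cps1* of at most 2.86 RPKM and macrophage sums of 1027 RPKM and above.

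Among the 9 tumors *Arg1* showed no detectable relation to the monocyte and macrophage score, with an r of -0.09 (exact permutation *p* = 0.829). It was 0.78 with the score of alternatively activated macrophages (exact *p* = 0.00549, adjusted *p* = 0.0659; rho 0.73, exact *p* = 0.0311, adjusted *p* = 0.249) and 0.63 without M2 and M6 (exact *p* = 0.127). With the granulocyte score it was 0.55 (exact *p* = 0.112) and with the hepatocyte score 0.31 (exact *p* = 0.399). With *Arg2* the r was 0.85 (exact *p* = 0.0197, adjusted *p* = 0.128), but without M4 and M6 it was -0.027, so that relation rests on those tumors. None of the 12 relations in the tumors passed the adjustment. Tumor M4, lowest in *Arg1* and *Arg2*, had the lowest granulocyte sum (9.78 RPKM) and the lowest sum of alternatively activated macrophage markers (16.1 RPKM) but a monocyte and macrophage sum of 1470 RPKM, near the median of 1476.

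As a description over the 9 tumors, the genes most like *Arg1* among 17777 were *Gab1*, a signaling adaptor (r = 0.96), *Ccl6*, a chemokine of mouse myeloid cells (r = 0.95), *Nxpe5* (r = 0.94), *Cbr2* (r = 0.93), and *Gm20655* (r = 0.93). *Arg2* ranked 50th (r = 0.86), *Mrc1* 83rd (r = 0.84), and *Cps1* 5444th (r = 0.24).

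Genes that bring in or use arginine outside the cycle were split in the tumor, with shares of higher genes near the 43.8% of all genes. Of 18 genes that use arginine or ornithine, 9 were higher than in pre-metastatic liver and 6 lower, with a median log2 fold change of 0.29 beside 0.13 over all genes (14 and 4 with library totals, where *Azin1* and *Oaz1* turned from lower to higher). *Nos2* rose by 5.48 (SE 0.57, adjusted *p* = 2.52e-08) to 4.38 ± 2.82 RPKM, *Aldh18a1*, which makes proline and ornithine precursors from glutamate, by 4.47 (SE 0.19, adjusted *p* = 1.81e-14) to 26.1 ± 6.51 RPKM, and *Nos1* by 4.85 from levels near 0 (adjusted *p* = 3.37e-05). *Agmat*, which splits agmatine, fell by 12.04, *Prodh* fell by 7.64, and *Gamt*, the last step of creatine synthesis, fell by 5.18. Of 8 transporters 4 were higher and 4 lower (5 and 3 with library totals, where *Slc7a7* turned), and *Slc7a1*, the common importer of arginine, rose by 5.31 (SE 0.23, adjusted *p* = 3.20e-14) to 22.8 ± 3.28 RPKM while *Slc7a2* fell by 5.80. *Slc14a1* rose by 5.48 to 21.9 ± 9.09 RPKM and *Slc7a6* by 4.74. *Aqp9* fell by 9.50 and *Slc25a29* fell by 2.41.

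The nitrogen donors were 3 higher and 8 lower of 12 (4 and 7 with library totals, where *Got1* turned, and 3 and 7 with the mouse as a block, where *Got1* was not called, adjusted *p* = 0.326). *Asns* rose by 4.38 (SE 0.36, adjusted *p* = 6.50e-10) to 76.9 ± 14.6 RPKM, while *Gls2* fell by 6.47, *Gpt*, the alanine transaminase, fell by 7.23, and *Slc38a3* fell by 11.34. Of 7 regulators, 6 were lower (with library totals 4, and 2 higher, where *Cebpb* turned). *Gcgr*, the glucagon receptor, fell by 11.37, *Hnf4a* fell by 10.78, and *Cebpa*, a liver transcription factor, fell by 4.99. Against control liver, the log2 fold change was 7.74 for *Nos2*, 6.85 for *Asns*, 6.41 for *Aldh18a1*, and 6.16 for *Slc7a1*, and 10 of 18 genes of arginine and ornithine use were higher and 6 lower (13 and 4 with library totals).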

How the data were processed

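Reads of 23 poly(A) libraries had been aligned and counted before deposit; the submitters' processing notes name HISAT2, HTSeq 0.6.0, and the mm10 build, and the annotation and the strand setting are not given in the sources used here. The authors deposited raw counts for each gene and library, without normalization, and RPKM, which recomputation from the counts, lengths, and totals matched within 1.75e-06 of each value. Gene length is that of the deposited table. Columns were matched to samples by mouse number and tissue code, 0 were left over, and the 2 repeated symbols were summed. No 2 libraries were copies (closest pair, chi-square 49.3 per degree of freedom). Counting error is small at these depths except for genes at a few counts, and 3 counts per library was taken as the floor.

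Genes were kept where 5 or more of the libraries fitted had 10 counts or more, and were tested with edgeR 4.0.16 in R 4.3.3 (TMM, quasi-likelihood, 14 livers, 18 libraries of tumor-bearing mice, or 14 libraries of tumors and control livers), after a test on simulated data. Log2 ratios of RPKM used a pseudocount of 0.01 and an exact two-sided permutation test over all regroupings of the libraries, without the pairing by mouse. Relations used log2(RPKM + 1) and exact permutations (Python 3.11.15, numpy 2.4.6, scipy 1.17.1, pandas 2.3.3; figures, matplotlib 3.10.9). Alternatives were DESeq2 1.42.0, other scalings, no count filter, an exact Wilcoxon test, clock phase, each replicate left out, and the mouse as a block. Library totals and leaving out the tumors of M10 and M12 were added after the data had been seen. Tumor and liver of a mouse are paired by the mouse number of the labels: over 14497 genes their deviations from the group means had a mean r of 0.0764 within a mouse and -0.00974 between mice.

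The members, gene lists, and tests were chosen with earlier results of these data known. Beside the 9 members, genes were named by rule: the 3 largest called rises and falls per list and comparison, the 5 genes most like *Arg1*, and the 2 most abundant markers per list; others are named as chosen after their values were seen. These are *Mrc1*, *Cd163*, *Azin1*, *Oaz1*, *Slc7a7*, *Cebpb*, and *Got1* in the tumor, *Nos2* in the livers, *Cdx2*, *Cdh17*, *Epcam*, *Vil1*, *Car1*, *Slc26a3*, *Arntl*, *Clock*, and the overlapping *Vti1b* and *Gm11586*. The values of 1 listed gene are not reported here.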

Additional observations from a re-analysis of the deposited data

Results flagged for a closer look

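Over 36 sets of values, a gene or ratio within a group, 3 had a library apart from the others by Dixon's criterion, which chance meets in about 1 set of 20. *Arg1* in the pre-metastatic liver of M6 was at 1189 RPKM, with the next highest at 694. *Otc* in control liver C7, the late-phase control, was at 54.3 RPKM, with the next lowest at 64.8. *Nags* in the tumor of M12, 1 of the 2 tumors rich in hepatocyte RNA, was at 0.191 RPKM on 22 counts, with the next highest at 0.0867.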

How the results depend on the processing

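Across the alternatives the 7 lower members of the pre-metastatic liver and the 8 lower and 1 higher members of both tumor comparisons were called alike in each setting run. *Arg2* in pre-metastatic liver was the exception: 1 member was then called higher with DESeq2 (log2 fold change 0.86, adjusted *p* = 0.0302), without C4 (1.08, adjusted *p* = 0.0373), and without M8 (0.97, adjusted *p* = 0.0223), so that leaving out a replicate gave 0 to 1 higher members. Leaving out single livers moved the fall of *Arg1* between 1.10 and 1.44 on the log2 scale. With the mouse as a block, paired tumors and livers again gave 8 lower and 1 higher member (*Arg1*, log2 fold change -3.41, adjusted *p* = 1.98e-07), and no member's call changed. Of the listed genes, *Got1* lost its call with the block, and *Slc26a3* (lower), *Arntl*, and *Clock* (both higher) gained one. The *Arg1* relations were the least stable. With the 2 farthest libraries left out, that of *Arg1* with *Arg2* in the tumors reversed to an r of -0.027, those with the hepatocyte score in the livers and with the alternatively activated macrophage score in the tumors went to 0.35 and 0.63, and the number of relations in the tumors with an unadjusted *p* under 0.05 went from 2 to 0. That of *Arg1* with the granulocyte score in the livers passed 0.05 when centered within clock phase (0.53, exact *p* = 0.0368) and without M1 and M2 (0.89, exact *p* = 0.00833). Centered within clock phase, that with the hepatocyte score in the livers was 0.75 (exact *p* = 0.0406). The cause of these shifts was not tested. No value here separates cell types, *Arg2* rests on few counts, and C7 is the only late-phase control.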
